A study of Mus musculus with 14 samples.

Results

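The ligands of the TNF superfamily were followed in sorted mouse lung ILC2s, the group 2 innate lymphocytes that make type 2 cytokines in response to the alarmins IL-33 and IL-25. The 10 genes Tnf, Lta, Ltb, Tnfsf4, Tnfsf8, Tnfsf9, Tnfsf10, Tnfsf11, Tnfsf14 and Tnfsf15 were chosen by name and matched by symbol among the 53278 genes of the deposited tables. All 10 passed the filter on low counts in both experiments. The stimulation experiment compared 4 Unstimulated libraries with 4 IL-33 stimulated libraries (20 ng/mL for 24 h), each from a separate female B6 mouse. The Blimp-1 experiment compared 3 Control (ControlIL7RaCre) with 3 Blimp-1-deficient (Blimp-1IL7RaCre) libraries, each from a separate female mouse, with ages matched between the genotypes. Both genotypes carried Cre under the IL7Ra gene, and the ILC2s of all 6 mice had been activated for 72 h with 20 ng/mL IL-33 plus 20 ng/mL IL-25. The study's methods add IL-2 to such cultures, which the sample labels do not list. IL7Ra-Cre deletes a floxed gene in all lymphoid lineages, so in the Blimp-1-deficient mice the T, B and NK cells lacked Prdm1 as well as the ILCs. The labels and the design text describe individual mice, while some of the study's figure legends speak in general of sorted samples pooled from 2 animals. For the Unstimulated cells no culture time is given in the sample labels, and the study's design text describes them both as cultured without IL-33 and as ex vivo, so effects of IL-33 and of culture cannot be told apart if those cells were not cultured.

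Total counts per library lay between 10470125 and 32849428 for the stimulation and between 13570188 and 76448945 for the Blimp-1 libraries. The shallowest library of each experiment stood apart from its group. In Control replicate 2, 76.8% of the counts lay on 7 loci, leaving 3150795 for all other genes, while in the other 5 libraries these loci held 0.262% to 0.941%. There 3 counts, the limit that a count of 0 allows, were worth 0.731 CPM (TMM-normalized counts scaled to 1000000 per library), against 0.0310 to 0.0387 in the other Blimp-1 libraries. IL-33 stimulated replicate 3 had the fewest counts of the stimulation experiment, and 3 counts were worth 0.296 CPM in it. Such limits cover counting error only, because the reads carry no molecular identifiers. The results for the ligands are therefore given with and without these libraries. ILC2 markers summed to between 6841 and 46299 CPM in all 14 libraries.

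TNF superfamily ligands are trimeric proteins, most of them anchored in the membrane of the cell that makes them, where they act by contact unless a protease releases them. Each binds one or a few receptors of the TNF receptor superfamily. Receptors with a death domain can start apoptosis, and the others recruit TRAF adaptors to activate NF-kB. On lymphocytes several of these ligands are costimulatory: OX40 ligand (Tnfsf4), CD30 ligand (Tnfsf8), the CD137 ligand (Tnfsf9), LIGHT (Tnfsf14) and TL1A (Tnfsf15) act on T cells or on ILC2s themselves. Tnf and the lymphotoxins Lta and Ltb drive inflammation and the building of lymphoid tissue, Tnfsf10 (TRAIL) is a death ligand, and Tnfsf11 (RANKL) is the osteoclast differentiation factor. Prdm1 encodes Blimp-1, which represses transcription and also acts in B and T lymphocytes.

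Of the 10 genes, 3 lie side by side on mouse chromosome 17 (GRCm38, GENCODE annotation). Ltb is at chr17:35194439-35196320 on the plus strand, Tnf at chr17:35199381-35202007 on the minus strand and Lta at chr17:35203165-35205351 on the minus strand, with 3060 bases between Ltb and Tnf and 1157 bases between Tnf and Lta. Tnfsf9 (chr17:57105325-57107757, plus) and Tnfsf14 (chr17:57189492-57194177, minus) are 81734 bases apart on the same chromosome. Tnfsf15 (chr4:63727084-63745113, minus) and Tnfsf8 (chr4:63831308-63861347, minus) are 86194 bases apart on chromosome 4. Tnfsf10 (chr3:27317028-27342427, plus), Tnfsf4 (chr1:161395409-161418410, plus) and Tnfsf11 (chr14:78277445-78308043, minus) are each alone. Only Tnfsf9 shares exon bases with another gene: 14.9% of its exon bases are overlapped by Gm11110 on the opposite strand, and since the strand setting of the authors' counting is not stated, its reads cannot be told apart from those of Gm11110 there. The other 9 share no exon base with an annotated gene.

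Promoter sequences from RefSeq (GRCm38.p6) matched 8 of the 10 genes, all but Tnfsf4 and Tnfsf9. They are shown for 5 genes, the 3 neighbours on chromosome 17 and the pair on chromosome 4, because these neighbours did not all respond alike. Each sequence is written 5′ to 3′ on the strand of its gene and ends at the last base before the gene: Ltb chr17:35194257-35194438, plus; Tnf chr17:35202008-35202257, minus; Lta chr17:35205352-35205601, minus; Tnfsf15 chr4:63745114-63745309, minus; Tnfsf8 chr4:63861348-63861534, minus. Capitals mark GAAAG, the core of the Blimp-1 consensus AGNGAAAG, or CTTTC, the same core on the other strand, and every match to the NF-kB consensus on either strand.
Ltb: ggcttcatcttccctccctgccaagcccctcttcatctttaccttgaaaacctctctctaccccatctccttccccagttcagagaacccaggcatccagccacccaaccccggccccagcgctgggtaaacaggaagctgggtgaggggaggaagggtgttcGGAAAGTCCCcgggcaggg
Tnf: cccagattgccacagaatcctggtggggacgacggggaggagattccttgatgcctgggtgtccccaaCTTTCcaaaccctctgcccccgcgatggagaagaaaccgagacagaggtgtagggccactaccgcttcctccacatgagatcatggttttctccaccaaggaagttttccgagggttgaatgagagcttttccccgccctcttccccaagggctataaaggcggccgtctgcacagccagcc
Lta: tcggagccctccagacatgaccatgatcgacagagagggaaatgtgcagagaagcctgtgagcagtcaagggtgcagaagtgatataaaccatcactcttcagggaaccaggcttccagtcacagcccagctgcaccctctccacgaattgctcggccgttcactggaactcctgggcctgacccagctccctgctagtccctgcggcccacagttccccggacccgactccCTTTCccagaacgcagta
Tnfsf15: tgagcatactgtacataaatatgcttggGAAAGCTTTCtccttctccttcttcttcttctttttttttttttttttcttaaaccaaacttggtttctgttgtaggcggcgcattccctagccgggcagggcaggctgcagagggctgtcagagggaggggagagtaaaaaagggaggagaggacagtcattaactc
Tnfsf8: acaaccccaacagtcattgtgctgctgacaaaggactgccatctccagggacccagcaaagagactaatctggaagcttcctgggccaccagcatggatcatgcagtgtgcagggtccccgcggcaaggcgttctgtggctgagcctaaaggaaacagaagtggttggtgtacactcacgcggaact

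Motifs were searched on both strands of the 250 bases before each RefSeq start, a window that for some genes runs past the end of the sequence shown. GAAAG was present in 7 of the 8 promoters, all but that of Tnfsf8, against 51.5% of 32851 mouse promoter windows of the same length. In Tnf the match was 182 to 178 bases before the start, in Lta 18 to 14 bases, and Tnfsf15 held GAAAG and CTTTC end to end, 222 to 213 bases before it. Ltb had one match at 86 to 82 bases, inside a match to the NF-kB consensus at 87 to 78 bases, and another at 20 to 16 bases. The NF-kB consensus was found in no other of the 8 promoters and in 7.25% of all windows. The longer AGNGAAAG was present only in Tnfsf11, 92 to 85 bases before its start, and in 7.3% of all windows. TATAAA was found in Tnf (29 to 24 bases before the start), Lta (167 to 162) and Tnfsf11 (32 to 27) and in 12.4% of windows, and TGANTCA, the motif of AP-1, in Tnfsf14 (160 to 154) and in 6.75%. A match describes these letters in these windows and is not evidence of binding.

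To ask which ligands ILC2s expressed most, TPM, which corrects for gene length, were compared between genes within each library. In Unstimulated ILC2s, Tnfsf14 (213 TPM) and Ltb (158 TPM) were the most abundant and together held the larger part of the ligand RNA. Tnfsf14 made up 34.1% ± 2.93 (SD, n = 4) and Ltb 25.1% ± 3.76 of the summed TPM of the 10 ligands, and each was above the gene below it in all 4 libraries. Tnfsf10 (11.0% ± 1.43) followed, above Lta (9.54%) in 3 of 4 libraries, so this pair was not separated by the spread. Tnfsf11 held 8.11%. Tnfsf4 (4.09%), Tnf (3.77%) and Tnfsf9 (3.75%) came next and changed places between libraries. Tnfsf8 held 0.543% and Tnfsf15 0.0289%, so both were scarce in the unstimulated state.

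In IL-33 stimulated ILC2s the order was different, with Lta on top at 280.0 TPM and 33.8% ± 2.64 of the ligand TPM (n = 4). Tnf followed at 139 TPM and 16.8% ± 0.862, and then Tnfsf10 with 12.9%. Tnfsf14 and Tnfsf4 followed with 9.65% and 9.29% and were not separated, each being above the other in 2 of 4 libraries, and Tnfsf8 (5.61%) was above Ltb (5.39%) in 3 of 4. Tnfsf11 held 3.25%, Tnfsf9 2.45% and Tnfsf15 0.782%. Without IL-33 stimulated replicate 3 the order was the same, with 33.3% for Lta, 16.5% for Tnf, 13.1% for Tnfsf10 and 10.2% for Tnfsf14. The summed TPM of the ligands was 603, 652, 673 and 580 in Unstimulated replicates 1 to 4 and 826, 878, 662 and 943 in IL-33 stimulated replicates 1 to 4, and these ranges overlapped through IL-33 stimulated replicate 3.

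After 72 h with IL-33 and IL-25, Lta was again the most abundant ligand in both genotypes. It held 30.2% ± 3.18 of the ligand TPM in Control (n = 3) and 37.4% ± 2.93 in Blimp-1-deficient ILC2s (n = 3), where its mean was 622 TPM. In Control, Tnfsf10 (16.0%) followed, and Tnfsf8 (9.49%), Tnf (9.17%) and Tnfsf14 (8.98%) were not separated. Without Control replicate 2 these shares were 31.9% for Lta, 14.9% for Tnfsf10, 10.5% for Tnfsf8, 8.12% for Tnf and 10.8% for Tnfsf14. In Blimp-1-deficient ILC2s, Tnfsf8 came next with 17.3% ± 2.91 (286 TPM) and then Tnf with 12.2% ± 0.411 (202 TPM). Ltb (8.14%), Tnfsf14 (7.67%) and Tnfsf10 were not separated there, and Tnfsf15 was last in both genotypes, with 0.420% and 0.667%. The summed ligand TPM was 587, 8.88 and 536 in Control replicates 1 to 3 and 1827, 1605 and 1541 in Blimp-1-deficient replicates 1 to 3. In Control replicate 2, where the sum was 8.88, 7 loci held 76.8% of the counts, and their part in this low sum was not tested. Because of this library, the levels in the comparisons that follow are CPM after TMM normalization, each experiment scaled on its own.

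**Figure D1:**
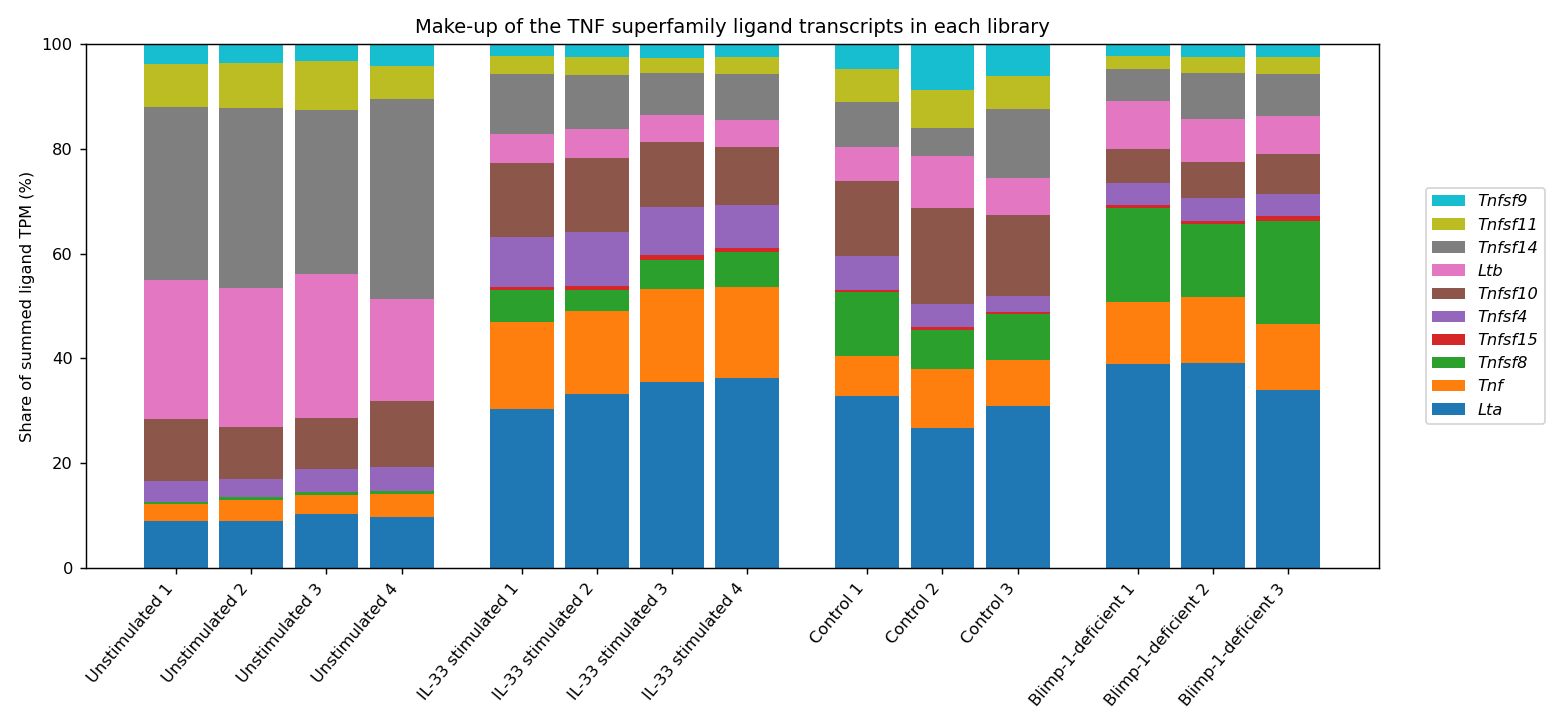
Share of each ligand in the summed TPM of the 10 ligands, stacked to 100% for each of the 14 libraries (x axis, by group and replicate). Tnfsf14 and Ltb are the widest bands in the Unstimulated libraries and Lta is the widest in the IL-33 stimulated, Control and Blimp-1-deficient groups on average (33.8%, 30.2% and 37.4%).

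The first comparison asked how the ligands differ between IL-33 stimulated and Unstimulated ILC2s. After IL-33, Tnf, Lta, Tnfsf4, Tnfsf8, Tnfsf10 and Tnfsf15 were higher, Ltb and Tnfsf14 were lower, and Tnfsf9 and Tnfsf11 did not pass the threshold. That is 6 ligands higher and 2 lower of 10 (edgeR's quasi-likelihood test, Benjamini-Hochberg adjusted p below 0.05, two-sided, n = 4 per group), against 16.2% of the 15466 genes tested that were higher and 16.1% that were lower. In the same 8 ligands every library of one group lay beyond every library of the other, which held for 37.9% of all genes tested (17.0% higher, 20.9% lower). The median log2 fold change of the 10 ligands was 1.44, against 0.06 for all genes. Without IL-33 stimulated replicate 3, 27.5% of 15733 genes were called higher and 29.7% lower, and of the ligands 6 were higher and 3 lower, Tnfsf11 being the addition. The groups of the same 8 ligands were apart in that fit, as were those of 58.7% of genes (28.6% higher, 30.1% lower). In bulk RNA, a change in the share of cells that make a ligand and a change in its RNA per cell cannot be told apart.

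In the cluster on chromosome 17, Tnf and Lta moved opposite to Ltb. Tnf was at 9.76, 12.1, 11.1 and 11.6 CPM in Unstimulated replicates 1 to 4 and at 77.7, 80.0, 73.6 and 99.9 CPM in IL-33 stimulated replicates 1 to 4. The lowest stimulated library was thus far above the highest unstimulated one. The group means were 11.2 ± 1.02 and 82.8 ± 11.7 CPM (SD, n = 4), and Tnf rose by 2.89 on the log2 scale (SE 0.13, edgeR adjusted p = 6.59e-06), or 7.42-fold. Lta, which encodes lymphotoxin alpha, a secreted trimer that also joins lymphotoxin beta on the cell surface, was at 22.7, 23.4, 27.4 and 22.2 CPM without and at 119.9, 142, 124 and 177 CPM with IL-33. Its groups were as clearly apart, and its log2 fold change was 2.56 (SE 0.14, edgeR adjusted p = 1.71e-05). Ltb, the membrane anchor of that heterotrimer, was at 73.8, 75.3, 80.2 and 48.2 CPM in Unstimulated and at 23.3, 26.5, 20.3 and 28.0 CPM in IL-33 stimulated libraries. Unstimulated replicate 4 was the lowest of its group but remained above all stimulated libraries. Ltb fell by 1.50 on the log2 scale (SE 0.18, edgeR adjusted p = 0.000490), which is 2.83-fold lower. Without IL-33 stimulated replicate 3 the log2 fold changes were 2.94 for Tnf, 2.62 for Lta and -1.42 for Ltb.

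Among the costimulatory ligands, Tnfsf8 and Tnfsf15 had the lowest levels before stimulation and the largest fold changes of the 10 ligands, Tnfsf4 rose and Tnfsf14 fell. Tnfsf8 was at 3.19, 3.01, 4.97 and 3.78 CPM in Unstimulated and at 64.6, 48.9, 54.5 and 90.1 CPM in IL-33 stimulated libraries. With group means of 3.74 ± 0.886 and 64.5 ± 18.3 CPM, it rose by 4.11 on the log2 scale (SE 0.26, edgeR adjusted p = 2.86e-05). The stimulated libraries varied among themselves, yet the lowest was well above every unstimulated one. Tnfsf15 was at 0.278, 0.0286, 0.127 and 0.252 CPM in Unstimulated libraries, which rests on 8, 1, 3 and 8 counts, and at 6.31, 7.90, 7.88 and 9.13 CPM after IL-33 (192, 244, 80 and 258 counts). The fitted log2 fold change was 5.48 (SE 0.61, edgeR adjusted p = 0.000359), and with so few counts in the reference group its size is imprecise. Over the alternatives it ranged from 2.65 to 6.08, and without IL-33 stimulated replicate 3 it was 5.49 (adjusted p = 1.43e-06). Tnfsf4, whose product sustains T helper 2 cells, was at 13.4, 12.2, 15.0 and 13.8 CPM without and at 49.7, 58.9, 42.7 and 53.5 CPM with IL-33. It rose by 1.91 on the log2 scale (SE 0.12, edgeR adjusted p = 3.06e-05), or 3.77-fold. Without IL-33 stimulated replicate 3 the log2 fold changes were 4.20 for Tnfsf8 (adjusted p = 2.92e-07) and 1.99 for Tnfsf4 (8.49e-08).

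Tnfsf14, the most abundant ligand of the Unstimulated cells, was at 112, 119, 111 and 116 CPM there and at 61.5, 58.9, 37.7 and 57.5 CPM after IL-33. All stimulated libraries were below all unstimulated ones, and IL-33 stimulated replicate 3 was the lowest. Tnfsf14 fell by 1.08 on the log2 scale (SE 0.15, edgeR adjusted p = 0.000910) with all libraries and by 0.95 (SE 0.05, adjusted p = 2.61e-07) without that replicate. Tnfsf9 was at 8.47, 8.42, 7.78 and 8.60 CPM in Unstimulated and at 7.85, 9.17, 8.37 and 10.7 CPM in IL-33 stimulated libraries, and these groups overlapped. Its log2 fold change was 0.12 (SE 0.15, edgeR adjusted p = 0.577), and its sign turned to -0.047 with scaling by library size alone and to -0.21 on log2(TPM + 1), so no direction can be given for Tnfsf9. It was 0.15 (adjusted p = 0.339) without IL-33 stimulated replicate 3.

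Tnfsf10, the death ligand TRAIL, was at 114, 96.2, 97.9 and 108 CPM in Unstimulated and at 214, 228, 163 and 205 CPM in IL-33 stimulated libraries. The groups did not overlap, and Tnfsf10 rose by 0.96 on the log2 scale (SE 0.11, edgeR adjusted p = 0.000468), or 1.95-fold, and by 1.05 (adjusted p = 1.13e-06) without IL-33 stimulated replicate 3. Tnfsf11 was at 34.1, 35.6, 40.0 and 22.8 CPM in Unstimulated and at 21.8, 24.2, 15.8 and 26.0 CPM in IL-33 stimulated libraries. Unstimulated replicate 4 lay among the stimulated libraries, as it was also the lowest of its group for Ltb. With all libraries the log2 fold change of Tnfsf11 was -0.59 (SE 0.21, edgeR adjusted p = 0.0667). It passed the threshold without IL-33 stimulated replicate 3 (-0.46, adjusted p = 0.0360) and without Unstimulated replicate 4 (-0.70, adjusted p = 0.0114).

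**Figure D2:**
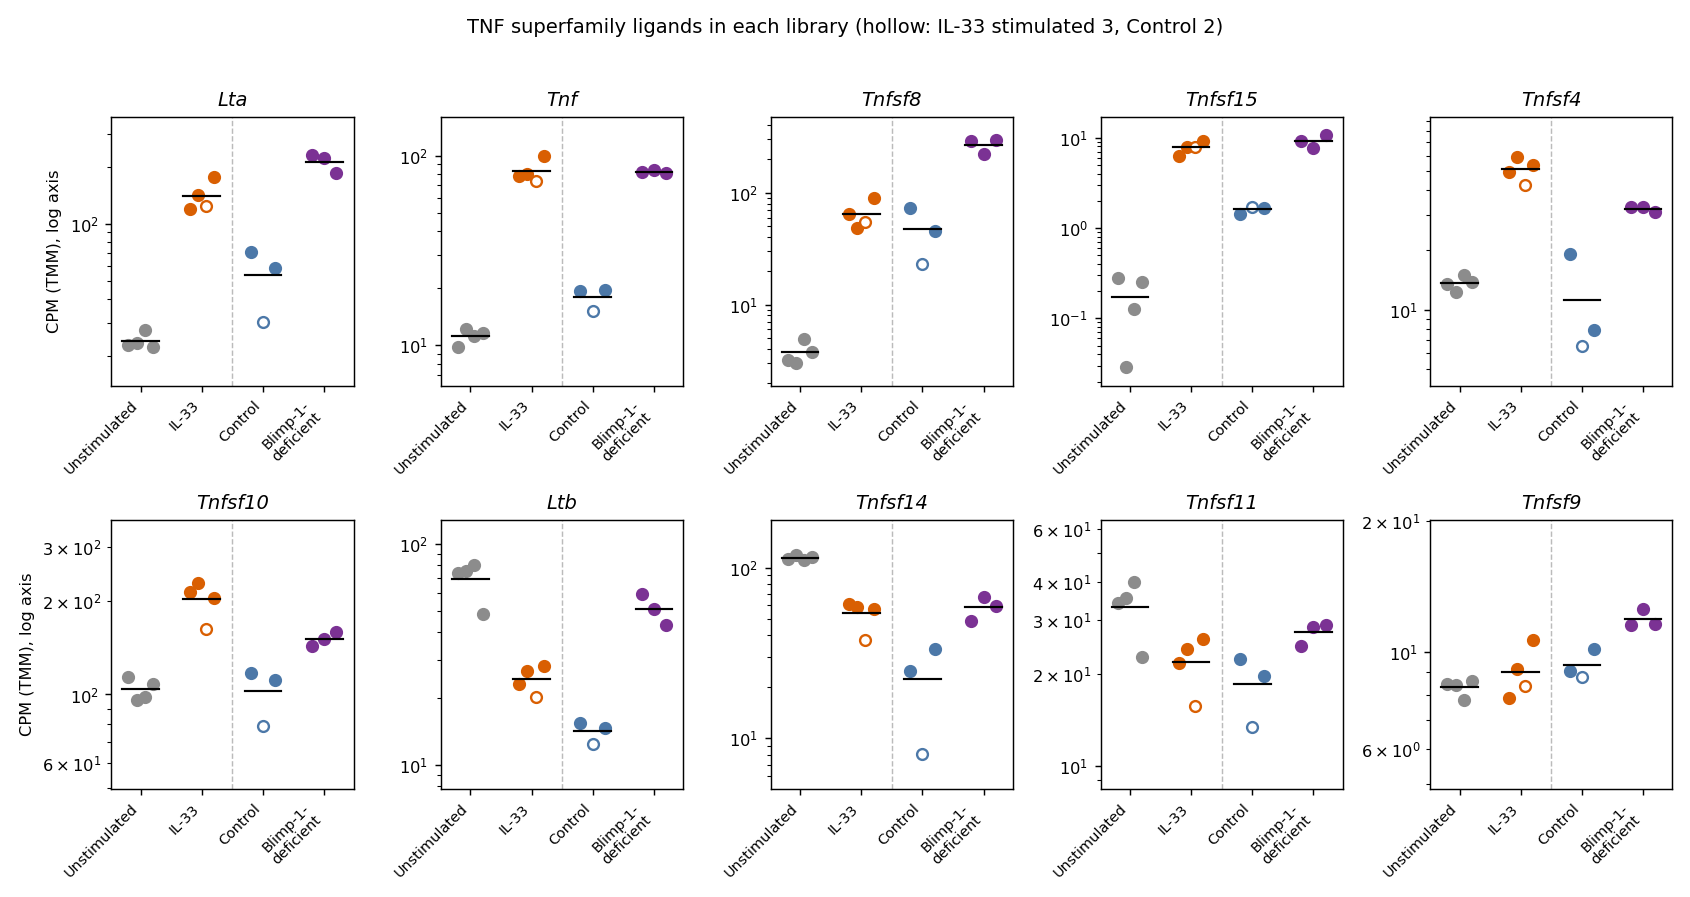
Level of each ligand in every library, in CPM on a log axis, with 1 panel per gene and the 4 groups along the x axis. Points are libraries, hollow for IL-33 stimulated replicate 3 and Control replicate 2, and the horizontal lines are group means; Tnf rises from 9.76 to 12.1 CPM in Unstimulated libraries to 73.6 to 99.9 after IL-33, while Tnfsf14 falls. The stimulation and Blimp-1 experiments were normalized separately, so levels are compared within an experiment.

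The second comparison asked which ligands differ between Blimp-1-deficient and Control ILC2s activated alike. The targeted gene, Prdm1, was at 75.2, 92.8 and 74.0 CPM in Control and at 14.6, 11.5 and 11.4 CPM in Blimp-1-deficient libraries, counted over the whole gene. Its log2 fold change was -2.68 (SE 0.15, edgeR adjusted p = 0.00441), with every deficient library below every Control, and -2.57 without Control replicate 2. After IL-33 in the other experiment the log2 fold change of Prdm1 was -0.43 (adjusted p = 0.213). The mast cell or basophil markers summed to at most 1.27 CPM in these 6 libraries, while epithelial and stromal markers summed to 203, 3573 and 309.6 CPM in Control replicates 1 to 3 and to 462, 496 and 661 CPM in Blimp-1-deficient replicates 1 to 3. Apart from Control replicate 2, these markers were thus higher in the deficient libraries, as the ligands were. Of the 7 that were tested, 0 were called with all libraries and 2 were called higher without Control replicate 2, where the groups of 5 did not overlap. Their part in the ligand results was not tested.

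All 10 ligands were higher in Blimp-1-deficient ILC2s in every library of that group than in every Control library, with and without Control replicate 2. Groups were apart for 22.6% of the 17335 genes tested, 11.8% in that direction and 10.8% in the other, and without Control replicate 2 for 50.5% of 17968 genes, 24.3% in that direction and 26.1% in the other. Past the threshold were 3 ligands with all libraries, Tnf, Ltb and Tnfsf15, and 0 were lower, while of all genes 0.756% were called, 0.450% as higher and 0.306% as lower (edgeR's quasi-likelihood test with Benjamini-Hochberg adjustment, n = 3 per group). By the unadjusted p below 0.05, 10 ligands were higher and 0 lower, against 1069 higher and 1002 lower of the 17335 genes tested. DESeq2 called 8 ligands higher and 0 lower, and of all genes it called 1106, 556 of them higher. Voom with sample weights called 9 ligands higher and 0 lower, and of all genes 2221, 1295 of them higher. Fewer ligands were called higher with library size alone (1, beside 98 of all genes), with limma on TPM (0 in all 3 forms) and with the replicate number as a block (0). Without Control replicate 2, 9 ligands were called higher, all but Tnfsf9, and 0 lower, while 8.25% of all genes were called higher and 5.72% lower. The median log2 fold change of the 10 ligands was 1.65 with all libraries and 1.50 without it, against -0.02 and 0.01 for all genes. Scaling by library size alone moved the median of all genes to 0.45 and log2(TPM + 1) moved it to 1.28, and all 10 ligands were above the median of all genes under each alternative.

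The 3 genes of the chromosome 17 cluster were all higher in Blimp-1-deficient cells, unlike after IL-33, where Ltb fell. Tnf was at 19.2, 15.1 and 19.6 CPM in Control replicates 1 to 3 and at 82.1, 84.3 and 80.6 CPM in Blimp-1-deficient replicates 1 to 3. The spread within each group was small beside the distance between them. Its mean was 18.0 ± 2.51 CPM in Control and 82.3 ± 1.83 CPM in Blimp-1-deficient cells (SD, n = 3), with a log2 fold change of 2.17 (SE 0.12, edgeR adjusted p = 0.00441) and a 4.50-fold difference, and without Control replicate 2 it was 2.09 (adjusted p = 2.79e-05). Tnf missed the threshold without Blimp-1-deficient replicate 1 (adjusted p = 0.0636), replicate 2 (0.05005) or replicate 3 (0.0656), as did Prdm1 in those fits, and over all fits that left out 1 library the log2 fold change of Tnf lay between 2.09 and 2.24. Ltb was at 15.4, 12.4 and 14.7 CPM in Control and at 59.1, 50.6 and 43.1 CPM in Blimp-1-deficient libraries. It rose by 1.82 on the log2 scale (SE 0.15, edgeR adjusted p = 0.0122), or 3.54-fold, and by 1.77 (adjusted p = 0.00120) without Control replicate 2. The call of Ltb was lost without Control replicate 1 (adjusted p = 0.0743) or 3 (0.111) and without Blimp-1-deficient replicate 1 (0.119), 2 (0.117) or 3 (0.0740), with log2 fold changes from 1.72 to 1.94. Lta was at 71.2, 30.2 and 58.7 CPM in Control and at 230.2, 224 and 186 CPM in Blimp-1-deficient libraries, Control replicate 2 being the lowest. Its log2 fold change was 1.97 (SE 0.30, adjusted p = 0.0517) with all libraries and 1.73 (SE 0.13, adjusted p = 0.000939) without Control replicate 2.

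Transcripts that mark ILC3s, cells that make lymphotoxin, were also followed in these libraries. Il22, the ILC3 cytokine, was at 2.73, 0.731 and 3.78 CPM in Control and at 20.2, 7.75 and 6.13 CPM in Blimp-1-deficient replicates 1 to 3. Il23r, the receptor for IL-23, was at 0.193, 0 and 0.391 CPM in Control and at 2.19, 2.41 and 1.604 CPM in Blimp-1-deficient libraries. For both genes every deficient library was above every Control. Il22 did not pass the threshold with all libraries (log2 fold change 2.08, edgeR adjusted p = 0.241) or without Control replicate 2 (1.82, adjusted p = 0.0605). Il23r passed it only without that library (2.82, adjusted p = 0.00441, against 3.00 and 0.0873 with all). Il17a had too few counts to be tested. The part of such cells in the level of Ltb or of the other ligands was not tested.

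Of the costimulatory ligands, Tnfsf15 passed the threshold with all libraries, and Tnfsf8, Tnfsf4 and Tnfsf14 without Control replicate 2. Tnfsf15 was at 1.43, 1.70 and 1.67 CPM in Control (119, 7 and 158 counts) and at 9.23, 7.66 and 10.6 CPM in Blimp-1-deficient libraries. The 7 counts of Control replicate 2 gave a level close to those of the other Controls, which rest on far more counts. Tnfsf15 rose by 2.53 on the log2 scale (SE 0.20, edgeR adjusted p = 0.0122), or 5.78-fold, and by 2.57 (adjusted p = 0.000733) without that library. Its call was lost without Control replicate 1 (adjusted p = 0.0743) or 3 (0.111) and without Blimp-1-deficient replicate 1 (0.119), 2 (0.0635) or 3 (0.117). Tnfsf8 was at 73.4, 23.1 and 45.5 CPM in Control and at 291, 222 and 298 CPM in Blimp-1-deficient libraries. The Controls were spread over a wide range, but all lay far below the deficient libraries, with means of 47.4 ± 25.2 and 270.2 ± 42.1 CPM. The log2 fold change of Tnfsf8 was 2.48 (SE 0.40, adjusted p = 0.0544) and, without Control replicate 2, 2.19 (SE 0.23, adjusted p = 0.00232).

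Tnfsf4 was at 19.0, 6.58 and 7.84 CPM in Control and at 33.2, 32.9 and 31.0 CPM in Blimp-1-deficient libraries. Here Control replicate 1 rather than replicate 2 was the one apart from its group. The log2 fold change was 1.48 (SE 0.39, edgeR adjusted p = 0.190), and it passed the threshold without Control replicate 2 (1.28, adjusted p = 0.0411) or replicate 1 (2.15, adjusted p = 0.0245). Tnfsf14 was at 24.9, 8.04 and 33.3 CPM in Control and at 48.7, 67.5 and 59.3 CPM in Blimp-1-deficient libraries. Its log2 fold change was 1.33 (SE 0.43, adjusted p = 0.277) with all libraries and 1.02 (SE 0.16, adjusted p = 0.00912) without Control replicate 2, in which it was lowest with 33 counts. Tnfsf14 and Ltb, the ligands called lower after IL-33, were thus above Control in every Blimp-1-deficient library, although Tnfsf14 did not pass the test there with all libraries, and Tnfsf11 had the same signs without passing either test with all libraries. Tnfsf9 was at 9.04, 8.77 and 10.2 CPM in Control and at 11.6, 12.5 and 11.6 CPM in Blimp-1-deficient libraries, and its log2 fold change of 0.34 (SE 0.12, adjusted p = 0.338; 0.32 and 0.0660 without Control replicate 2) was the smallest of the 10.

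Tnfsf10 was at 117, 79.2 and 111 CPM in Control and at 143, 151 and 159.6 CPM in Blimp-1-deficient libraries. Tnfsf11 was at 22.4, 13.4 and 19.7 CPM in Control and at 24.8, 28.5 and 28.9 CPM in Blimp-1-deficient libraries. For both, Control replicate 2 was the lowest library and the distance between the groups was small. The log2 fold change of Tnfsf10 was 0.55 (SE 0.16, edgeR adjusted p = 0.228), and 0.41 (adjusted p = 0.00920) without Control replicate 2. That of Tnfsf11 was 0.54 (SE 0.19, adjusted p = 0.332), and 0.39 (adjusted p = 0.0371) without it.

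**Figure D3:**
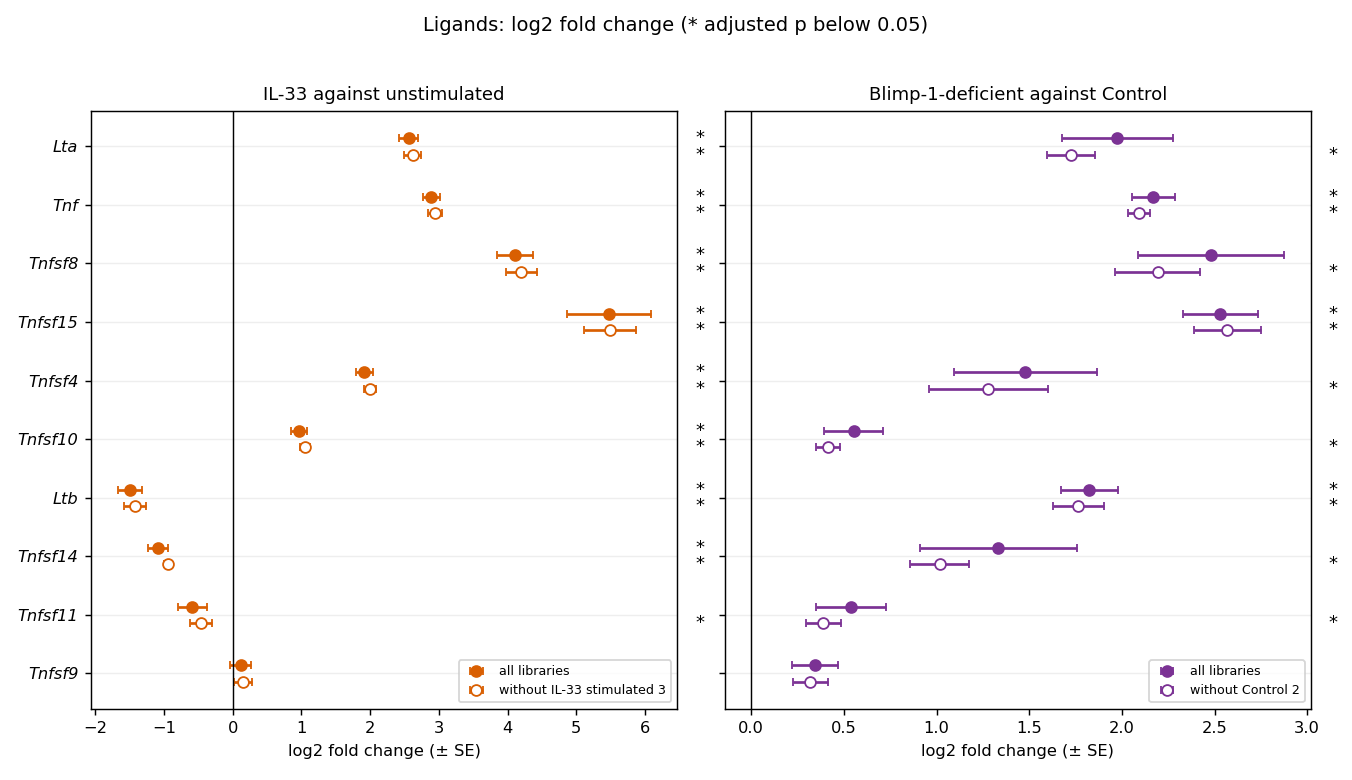
Log2 fold change ± SE of each ligand, IL-33 stimulated against Unstimulated in one panel and Blimp-1-deficient against Control in the other. Filled points use all libraries and hollow points leave out IL-33 stimulated replicate 3 or Control replicate 2, and an asterisk marks an edgeR adjusted p below 0.05; all 10 ligands lie above 0 in the Blimp-1 comparison, while Ltb (-1.50), Tnfsf14 (-1.08) and Tnfsf11 (-0.59) lie below 0 after IL-33.

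The 13 receptors of these ligands, chosen as a list, were all tested in both experiments. With all libraries 4 of them were higher and 1 lower after IL-33, against 16.2% and 16.1% of all genes tested. Once IL-33 stimulated replicate 3 was left out, 7 passed as higher and 1 as lower, against 27.5% and 29.7% of all genes. The median log2 fold change of the list was 0.30, against 0.06 for all genes. Tnfrsf8, the receptor for Tnfsf8 known as CD30, rose from 2.06 to 79.2 CPM, a log2 fold change of 5.27 (SE 0.54, edgeR adjusted p = 0.000248). Tnfrsf9, the receptor for Tnfsf9, rose from 66.3 to 395 CPM (log2 fold change 2.58, SE 0.28, adjusted p = 0.000359), while Tnfsf9 itself did not pass the test. Tnfrsf4 (OX40), the receptor for Tnfsf4, rose from 2.22 to 17.4 CPM (2.96, SE 0.40, adjusted p = 0.000917). Tnfrsf10b, the mouse TRAIL receptor that signals death, rose from 43.4 to 87.5 CPM (1.01, SE 0.14, adjusted p = 0.00123). These 4 were called in each fit that left out 1 library, and without IL-33 stimulated replicate 3 their log2 fold changes were 5.49, 2.64, 3.18 and 1.14. Tnfsf8 and Tnfrsf8, Tnfsf4 and Tnfrsf4, and Tnfsf10 and Tnfrsf10b were thus ligand and receptor pairs in which both genes rose after IL-33.

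The TNF receptors differed from these. Tnfrsf1b, which encodes TNF receptor 2, was among the most abundant receptors, with 203 CPM in Unstimulated and 214 CPM in IL-33 stimulated ILC2s (log2 fold change 0.08, edgeR adjusted p = 0.786; 0.26 and 0.00571 without IL-33 stimulated replicate 3), while its TPM were 184 and 156, so its direction turned with the scaling. Tnfrsf1a, which encodes the death domain receptor TNF receptor 1, was at 14.6 and 9.32 CPM, with a log2 fold change of -0.65 (SE 0.21, adjusted p = 0.0466). That call was lost in 6 of the 8 fits that left out 1 library, with adjusted p up to 0.131, namely without Unstimulated replicate 1, 2 or 3 or IL-33 stimulated replicate 1, 2 or 4. Tnfrsf25, the receptor for Tnfsf15, was at 71.9 CPM in Unstimulated and 110.4 CPM in IL-33 stimulated ILC2s (0.62, adjusted p = 0.0841; 0.83 and 7.28e-06 without IL-33 stimulated replicate 3).

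In the Blimp-1 comparison, no receptor passed edgeR's threshold with all libraries. By the unadjusted p below 0.05, 3 were higher and 1 lower, DESeq2 called 2 higher and 1 lower, and voom 5 higher and 1 lower. Without Control replicate 2, edgeR called 4 higher and 1 lower, against 8.25% and 5.72% of all genes tested. The lower one was Tnfrsf8, at 405, 419 and 380 CPM in Control and 201, 249 and 156 CPM in Blimp-1-deficient libraries. Its groups did not overlap, and its log2 fold change was -0.99 (edgeR adjusted p = 0.0758) with all libraries and -0.95 (SE 0.17, adjusted p = 0.0140) without Control replicate 2, opposite in sign to that of its ligand Tnfsf8. The higher ones were Tnfrsf1a (0.54, adjusted p = 0.0142), Tnfrsf11a (0.67, adjusted p = 0.0227), which encodes the receptor for Tnfsf11, Tnfrsf11b (1.02, adjusted p = 0.0322), its decoy receptor, and Tnfrsf25 (0.57, adjusted p = 0.00163). None of these 4 was called in any other fit that left out 1 library. Over those fits the log2 fold change of Tnfrsf1a ran from -0.49 to 0.54, so no direction can be given for it. The others of these 4 stayed above 0. Tnfrsf9 was at 374, 141 and 527 CPM in Control and at 439, 608 and 769.5 CPM in Blimp-1-deficient libraries, and these groups overlapped.

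**Figure D4:**
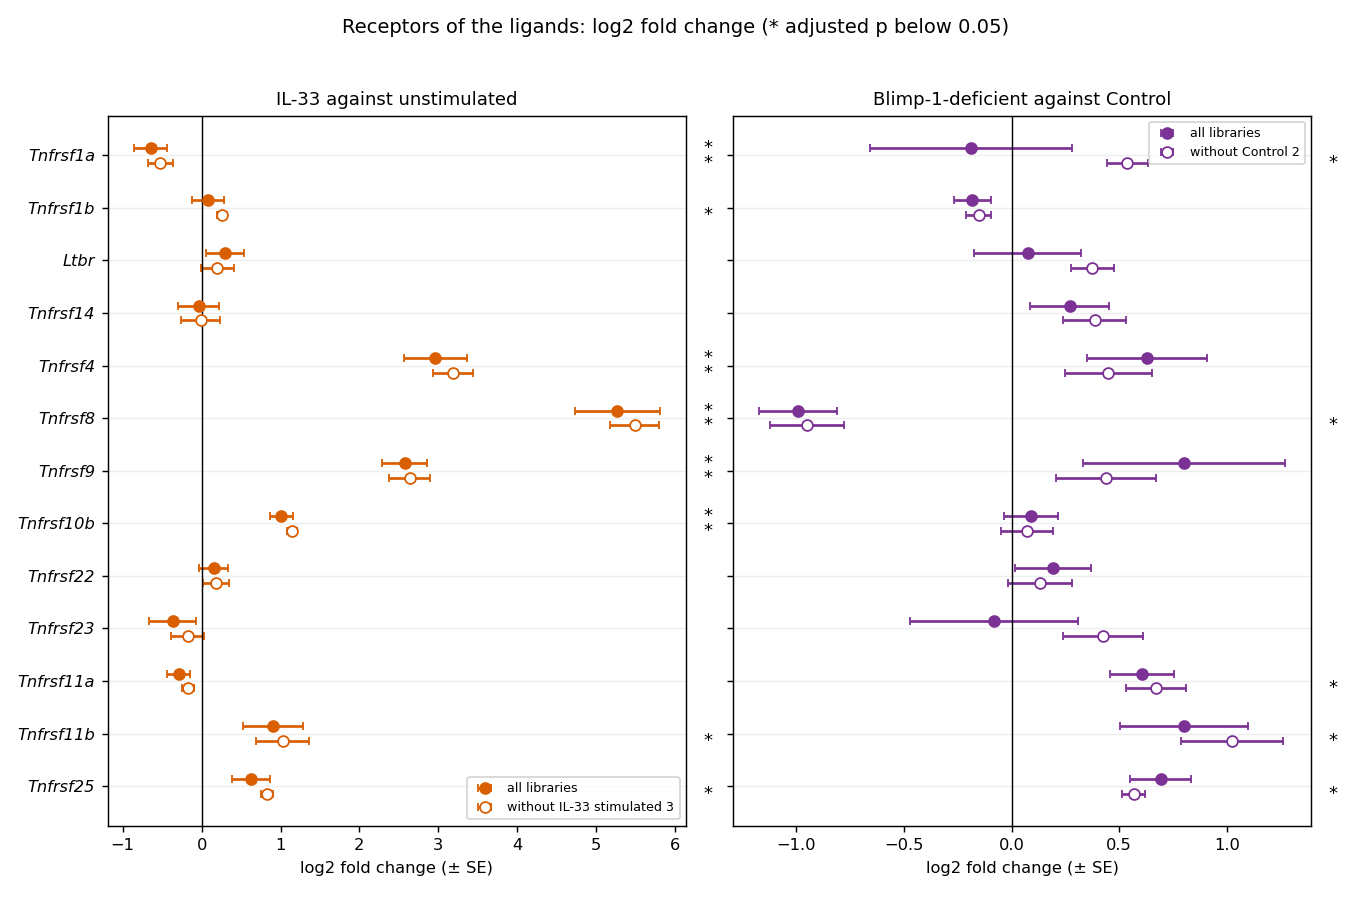
Log2 fold change ± SE of the 13 receptors, IL-33 stimulated against Unstimulated in one panel and Blimp-1-deficient against Control in the other, with filled points for all libraries, hollow points without IL-33 stimulated replicate 3 or Control replicate 2, and an asterisk for an edgeR adjusted p below 0.05. Tnfrsf8 lies furthest above 0 after IL-33 (5.27) and lies below 0 in the Blimp-1 comparison (-0.99).

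Of the 6 genes for shedding and cleavage of membrane ligands, 1 passed the threshold after IL-33, against 32.3% of all genes tested. Adam10, a sheddase, was at 242 CPM in Unstimulated and 186 CPM in IL-33 stimulated ILC2s (log2 fold change -0.38, SE 0.07, edgeR adjusted p = 0.00411), a call lost without Unstimulated replicate 1, 2 or 4 (adjusted p up to 0.0861). Without IL-33 stimulated replicate 3, Adam17, the TNF converting enzyme, was also called (0.26), as were its partner Rhbdf2 (0.54) and the protease Sppl2a (0.16). In that fit 27.5% of all genes tested were called higher and 29.7% lower. The mean TPM without that library went in the opposite direction for Adam17 (53.5 against 55.4 in Unstimulated) and for Sppl2a (53.7 against 59.7). In the Blimp-1 comparison edgeR called none of the 6, with 1 lower at an unadjusted p below 0.05, and DESeq2 and voom called 0. Without Control replicate 2 it was again 0, with 1 higher and 1 lower unadjusted.

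Of 12 adaptors and feedback regulators, 4 rose and 1 fell after IL-33, against 16.2% of all genes tested that were higher and 16.1% lower. Tnfaip3, which encodes the NF-kB inhibitor A20, rose from 30.0 to 257 CPM (log2 fold change 3.10, edgeR adjusted p = 3.37e-05), and Nfkbia, which encodes IkBa, from 43.2 to 203 CPM (2.23, adjusted p = 5.25e-05). Traf1 (1.25, adjusted p = 0.00202) and Birc3 (1.25, adjusted p = 0.000208), both part of TRAF complexes, rose as well. The log2 fold changes without IL-33 stimulated replicate 3 were 3.26 for Tnfaip3, 2.37 for Nfkbia, 1.43 for Traf1 and 1.36 for Birc3. Fadd, the adaptor of death receptors, fell by 0.38 (adjusted p = 0.0162), a call lost without Unstimulated replicate 1, 2 or 3 or IL-33 stimulated replicate 1 or 2 (adjusted p up to 0.0649). In Blimp-1-deficient ILC2s edgeR called 0 of the 12 with all libraries, with 3 higher at an unadjusted p below 0.05, and DESeq2 and voom each called 2 higher. Without Control replicate 2, Birc2 (0.53, adjusted p = 0.0310) and Tnfaip3 (0.64, adjusted p = 0.00618) were called higher, as were 8.25% of all genes tested.

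The other 8 ligands of the superfamily were little expressed. After IL-33, 2 of them had enough counts to be tested, Cd40lg (log2 fold change -0.02, edgeR adjusted p = 0.966) and Tnfsf12 (-1.06, adjusted p = 0.139; -0.75 and 0.0271 without IL-33 stimulated replicate 3), and 0 were called or passed an unadjusted p of 0.05, while DESeq2 called 1 higher and 1 lower and voom 1 lower. Cd70, which lies between Tnfsf9 and Tnfsf14, had 1, 0, 0 and 0 counts in Unstimulated and 7, 15, 6 and 15 counts in IL-33 stimulated libraries. It had too few counts to be tested with all libraries, and each IL-33 stimulated library held more counts than any Unstimulated one. Cd70 was tested in 5 of the fits that left out 1 library and called higher in all 5 (edgeR adjusted p from 0.00376 to 0.00983). DESeq2 and edgeR with no filter on low counts called it higher too. In those 5 fits it passed the filter only through its counts in the IL-33 stimulated libraries, so these calls add nothing to the counts above. No fold change is given, because no Unstimulated library held more than 1 count. In the Blimp-1 experiment 6 were tested and edgeR called 0, with 0 at an unadjusted p below 0.05, DESeq2 0 and voom 1 lower. That one was Fasl, which edgeR called lower without Control replicate 2 (-1.31, adjusted p = 0.0220).

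Genes beside the cluster on chromosome 17 were counted to show whether the change spanned the region. Of 6 such genes, 4 were tested by edgeR after IL-33 and 0 were called, with 0 at an unadjusted p below 0.05. DESeq2 tested all 6 and voom 4, each calling 0, with 1 higher at an unadjusted p below 0.05. In the Blimp-1 experiment 5 were tested and edgeR called 0, with 4 higher at an unadjusted p below 0.05, DESeq2 1 and voom 3. All 5 lay above 0, with and without Control replicate 2. Their median log2 fold change was 1.12, and 0.91 without that library, against -0.02 and 0.01 for all genes. Every deficient library was above every Control for 4 of the 5, against 11.8% of all genes tested. Without Control replicate 2 this held for all 5, against 24.3%. Without Control replicate 2, Nfkbil1 (0.61, edgeR adjusted p = 0.00881), Lst1 (0.91, adjusted p = 0.0184) and Aif1 (1.93, adjusted p = 0.0333) were called higher, as were 8.25% of all genes tested. Aif1 rests on 16, 2 and 9 counts in Control and 54, 30 and 57 in Blimp-1-deficient libraries. Ddx39b, an RNA helicase, was at 172.5 and 194.5 CPM in the 2 genotypes (0.17, adjusted p = 0.581).

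To find genes with a pattern like that of Tnf, the root mean square difference of centred log2(CPM + 1) was taken over the 14 libraries for 15065 genes. The libraries share culture conditions and depth within an experiment, so this is a description. The closest gene was Tnfsf15 (0.205), and the next was Lta (0.229), the neighbour of Tnf. Adding 1 CPM compresses the change of a gene as low as Tnfsf15, whose fitted log2 fold change after IL-33 was 5.48 against 2.89 for Tnf, so its closeness holds for this pseudocount and was not computed for another. Pim2, a survival kinase (0.265), Milr1 (0.287) and the sugar transporter Slc2a6 (0.290) followed. The same 5 genes were closest over the 12 libraries without IL-33 stimulated replicate 3 and Control replicate 2. Of the other ligands, Tnfsf4 ranked 29, Tnfsf8 35 and Tnfsf10 303, while Ltb ranked 13869 with a difference of 1.62, although its gene lies 3060 bases from Tnf.

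Markers of other cells were followed beside these results. T cell markers summed to between 63.5 and 79.0 CPM in Unstimulated, 29.7 and 43.1 in IL-33 stimulated, 46.1 and 49.2 in Control and 53.6 and 59.6 CPM in Blimp-1-deficient libraries. Myeloid markers ranged from 82.9 to 187 CPM in Unstimulated and from 39.1 to 117 CPM in IL-33 stimulated libraries. Their sum was 34.5, 90.6 and 116 CPM in Control, and it overlapped with the 32.8, 80.4 and 104 CPM of the Blimp-1-deficient libraries. Of the 10 myeloid markers edgeR called 0 higher and 1 lower with all libraries, but 4 higher and 1 lower without Control replicate 2, where 8 lay above 0, as the ligands did. T cell markers were thus lower after IL-33, in the direction of Ltb and Tnfsf14, and their sum was higher in Blimp-1-deficient than in Control libraries, with no overlap of the groups in either comparison. In the Blimp-1 comparison the sum and most single T cell markers differed in sign, since 4 of 9 lay above 0 and 5 below, with a median log2 fold change of -0.41 (-0.31 without Control replicate 2). Of the 9 T cell markers, edgeR called 3 lower after IL-33 and 0 in the Blimp-1 comparison, where 2 were higher and 1 lower at an unadjusted p below 0.05 and DESeq2 and voom each called 1 higher. Among B cell markers, Cd79b rose after IL-33 (from 9.53 to 11.9 CPM in Unstimulated to 14.6 to 17.7 CPM, log2 fold change 0.53, edgeR adjusted p = 0.0168). Mast cell and basophil markers summed to between 6.96 and 14.7 CPM in Unstimulated libraries and to at most 0.985 CPM after IL-33. NK cell and ILC1 markers summed to between 2.80 and 10.8 CPM in all 14 libraries, and 1 of the 6 tested was called lower in the Blimp-1 comparison with and without Control replicate 2. The part of these cells in the ligand levels was not tested. The ILC2 markers themselves went both ways. After IL-33 edgeR called 4 of the 10 higher and 5 lower, against 16.2% and 16.1% of all genes tested. In the Blimp-1 comparison 3 lay above 0 and 7 below, with 0 called. Without Control replicate 2, 3 were called higher and 3 lower, against 8.25% and 5.72% of all genes. Their sum was 20345, 11882 and 19906 CPM in Control replicates 1 to 3 and 12813 to 17268 CPM in Blimp-1-deficient libraries.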

How the data were processed

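Gene expression was measured by RNA-seq in 14 libraries of sorted lung ILC2s (live, lineage-, CD90.2+, CD3-), made with the SMART-seq v4 and Nextera XT kits. After trimming, the authors used HISAT2 with GRCm38 for alignment and Subread for counting reads in genes. For each experiment they deposited raw counts and TPM, the latter being counts divided by gene length and scaled to 1000000 per library. The submitters' processing notes also list Bowtie2, mm10 and DESeq2. The strand setting is not given in the sources used here, and the study's ATAC-seq is left out.

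Counts of each experiment were fitted alone in edgeR 4.0.16 (R 4.3.3), with TMM normalization, filterByExpr and the quasi-likelihood test, two-sided, with no term for the replicate number and a threshold of 0.05 after Benjamini-Hochberg adjustment over all genes tested (15466 and 17335). CPM were computed with no prior count, and SE is the fold change divided by the root of the F statistic. By the labels each library is a separate mouse, so p-values measure the spread between these samples in 1 experiment. No test was made across the experiments. Alternatives were DESeq2 1.42.0, RLE size factors, library size alone, no filter, a mean count of at least 50, limma 3.58.1 on log2(TPM + 1) or log2(TPM + 0.1) with a minimum mean TPM of 1, log2(TPM + 1) with no filter, voom with sample weights, a replicate block, and each library left out in turn. The code was tested on simulated data. Genes were named if they were 1 of the 10 ligands, passed the threshold in a list of other ligands, receptors, shedding, adaptors or neighbours of Tnf, were among the 3 of such a list with the highest TPM, or were among the 5 closest to Tnf; receptors, adaptors and neighbours called only without the doubted library were also given, chosen after their values were seen. The members and lists were chosen with earlier results of these data known. Figures were made in Python 3.11 (matplotlib 3.10.9). Some marker genes are not reported here.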

Additional observations from a re-analysis of the deposited data

Results flagged for a closer look

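Within the groups of 4 libraries, the level of Tnfsf14 in IL-33 stimulated replicate 3 stood apart. It was 37.7 CPM there, the lowest of its group, while the other stimulated libraries lay between 57.5 and 61.5 CPM, and the gap made up just more of the group's range than Dixon's critical value allows. Of 20 such groups examined this was the only one, and chance alone singles out about 1 group in 20. Tnfsf14 was lower than in all Unstimulated libraries with and without this replicate.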

How the results depend on the processing

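After IL-33, 6 ligands were higher under all 18 alternatives and 2 or 3 were lower, the count of 3 including Tnfsf11, which was called in 9 of 18. The sign of Tnfsf9 turned to -0.047 with library size alone, -0.21 on log2(TPM + 1) with and without the filter, and -0.22 on log2(TPM + 0.1), where the median of all genes was -0.10, -0.25 or -0.06, and -0.29. Genes past the threshold numbered 4992, with voom 9433 and, leaving out each library, 3672 to 8994; the cause was not tested. In the Blimp-1 comparison, 0 ligands were lower and all 10 were above 0 under all 16 alternatives, but the number called higher, 3 in the report, was 8 with DESeq2, 9 with voom, 5 with a mean count of at least 50, 1 with library size alone, 0 in the 3 limma fits on TPM (2, 2 and 3 at an unadjusted p below 0.05), and 0 to 9 leaving out each library. Genes past the threshold there, 131 in all, were 1106 with DESeq2, 2221 with voom, 256 with a mean count of at least 50, 2, 1 and 0 on TPM, and 0 to 2510 leaving out each library. Across these alternatives Tnf was called in 8, Tnfsf15 in 7, Ltb in 6, Lta, Tnfsf8 and Tnfsf4 in 4, Tnfsf10 and Tnfsf14 in 3, Tnfsf11 in 2 and Tnfsf9 in 0. By the design text replicate numbers name separate mice, which the labels alone do not settle. The correlations of same-numbered libraries did not all exceed 0.1. They were -0.11, 0.20, 0.31 and 0.16 for the stimulation, where 3 of 4 stimulated libraries correlated best with their own number. For Blimp-1 they were -0.12, -0.16 and 0.14. Same-numbered libraries were therefore not taken as pairs in the main fits. With the replicate block, 6 ligands were higher and 2 lower after IL-33, and in the Blimp-1 comparison 0 ligands and 0 genes were called, with 9 ligands higher at an unadjusted p below 0.05. Depth limits Control replicate 2 most, where Tnfsf15 rests on 7 counts.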
